A study of Kluyveromyces marxianus and Kluyveromyces lactis with 30 samples.

Results

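The caffeine response of the yeast Kluyveromyces lactis was described from 6 of the 30 libraries of the study, 3 from cultures grown with caffeine and 3 from control cultures at 28C. All 6 came from strain yLB72, which the labels name without further genotype. Overnight YPD cultures of single colonies were set to OD 0.05 in 50 mL of culture and harvested at OD 0.4 to 0.85, and polyadenylated RNA was sequenced. The labels give neither the caffeine dose nor the temperature of the caffeine cultures. The members were taken by their sample titles, and the replicates are described as biological. Cultures of the same strain at 39C and with the alkylating agent methyl methanesulfonate (MMS), 3 libraries each, served for direct comparison. K. lactis cultures with ethanol, also 3 libraries, entered the statistical fits and were not compared with caffeine.

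K. lactis is a dairy yeast that can grow on milk sugar and respires readily in the presence of glucose. Caffeine is a methylxanthine. In baker's yeast it is known to inhibit the TORC1 kinase complex, which couples ribosome production and growth to nutrients, and to activate the cell wall integrity pathway. The comparison asks how the K. lactis transcriptome differs between growth with caffeine and unstressed growth. The files do not pair the K. lactis gene IDs with gene names, apart from 15 IDs that carry one, so the response is described across all genes by level, length and position. For unnamed genes, 2 IDs that rose and 2 that fell are given, without a function.

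Caffeine libraries held 19308547 to 50911717 gene counts and control libraries 25583926 to 49827119. Of 5320 annotated genes, 5124 passed the filter on low counts and were tested. Levels are given as CPM, the usual depth-scaled unit of read counts, with library totals scaled by the trimmed mean of M-values (TMM). The TMM factors were 1.02 to 1.06 in caffeine and 0.735 to 0.76 in controls. With TMM the median log2 change of all tested genes was 0.01, and with raw totals it was 0.49. Every direction of a TMM-scaled change below is therefore relative to the median gene. Shares of counts are instead taken of raw library totals, so that a loss in some genes raises the shares of others. The amount of RNA per cell was not measured. In cultured populations, fewer cells expressing a gene and less RNA per cell cannot be told apart.

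The replicates of both groups lay close together, and the caffeine libraries closer than the controls. Across the 4783 genes of at least 10 CPM, the log2 differences between caffeine libraries had SDs of 0.165, 0.114 and 0.136. Those between control libraries had SDs of 0.189, 0.286 and 0.18, the widest between controls 1 and 3. The 9 pairs of a caffeine and a control library had SDs of 0.835 to 0.876, so that no pair across groups came near any pair within a group. At most 1 gene differed 2-fold between any pair of caffeine libraries, and at most 28 did between any pair of controls, against 749 to 862 between groups. The median SD of a gene's log2 level was 0.0679 in caffeine and 0.105 in controls. It was larger in controls for 68.3% of genes. The biological coefficient of variation, the relative spread left after counting error, was 0.0629 for the caffeine libraries alone, 0.108 for the controls alone and 0.145 over all 15 K. lactis libraries, in which the MMS libraries reached 0.206.

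**Figure D1:**
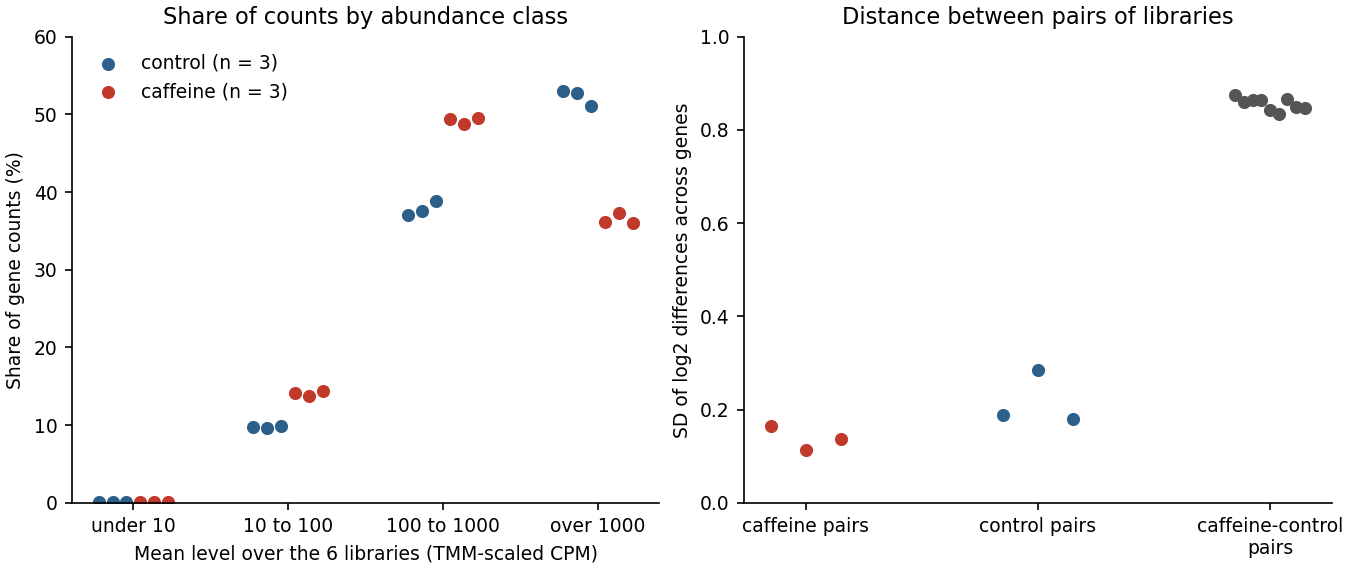
Left, the share of gene counts (percent) held by genes of 4 abundance classes (mean level over the 6 libraries, CPM), with 1 point per library; genes over 1000 CPM held 51.1% to 53.0% in controls and 36.0% to 37.3% in caffeine. Right, the SD of log2 differences across 4783 genes for each pair of libraries; all 9 caffeine-control pairs lie at 0.835 or above and all pairs within a group at 0.286 or below.

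The change was also computed in 2 sets of libraries that share none. The library of caffeine replicate 3 and those of controls 1 and 2 held at least 48771925 gene counts each, and the other 3 at most 25583926. The log2 changes computed within each of these depth classes had a Pearson correlation of 0.96 across 4783 genes, which are not independent of each other. A 2-fold difference in both classes was found for 693 genes, with the same direction in each and for 0 genes with opposite directions. The number of genes past 2-fold was 869 in the deeper class and 829 in the shallower.

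Most of the tested genes differed, mostly by small amounts. At an adjusted p under 0.05 in edgeR's quasi-likelihood test, 1616 genes (31.5%) were higher in caffeine and 1598 (31.2%) lower, together 62.7% of those tested. With raw library totals in place of TMM the split was 3023 higher and 623 lower. The median called gene changed 1.61-fold, and 39.8% of the called genes changed less than 1.5-fold. The median standard error of a log2 change was 0.12, and the smallest change called was 0.16 in size. The middle 50% of tested genes lay between log2 changes of -0.45 and 0.44, and the outer 5% on each side began at -1.38 and 1.32.

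At least 2-fold, 442 genes (8.63% of those tested) were higher and 461 (9.0%) lower, and with raw totals 1140 and 216. At 4-fold the numbers were 98 and 90, at 8-fold 41 and 22, and at 16-fold 11 and 7. No gene went from under 1 CPM in every library of a group to at least 10 CPM in every library of the other, in either direction. The 3 caffeine libraries lay all above or all below the 3 controls for 76.3% of tested genes. This held for 902 of the 903 genes called at 2-fold. For 240 genes every caffeine library stood at least 2-fold above every control, and for 308 at least 2-fold below.

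The fit of the 6 libraries alone called more genes than the fit of all 15 K. lactis libraries. It called 1895 genes higher and 1820 lower, 72.8% of the 5103 it tested. It shared 3200 genes with the larger fit, 99.6% of the calls of the larger fit and 86.1% of its own. Without the MMS libraries in the fit the number called was 3386, with 1762 higher and 1624 lower. Without the ethanol libraries 1816 were called higher and 1621 lower. The spread of the ethanol libraries alone was not estimated. The counts past 2-fold hardly differed, at 452 and 448 in the fit of 6 libraries.

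The most abundant genes of a library held a smaller share of its counts in caffeine than in controls. The 10 most abundant genes of each library held 23.9%, 22.8% and 21.1% of gene counts in controls and 8.98%, 9.55% and 8.91% in caffeine. The genes were taken in each library by itself. All caffeine libraries lay below all controls (2-sided exact permutation p = 0.1, which is the smallest possible with 3 libraries a group, and 0.1 when adjusted by Benjamini-Hochberg for 7 library measures). The number of genes that together held 50% of the counts was 123, 128 and 145 in the 3 controls and 326, 312 and 332 in caffeine. It was 239 to 265 in heat and 416 to 539 in MMS. With the 10 most abundant genes of the 6 libraries left out, the difference in the share of the next 10 was -2.73 percentage points, against -13.5 with them, and that in the number of genes 109, against 191.

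Seen as shares, 29.1% of all counts moved from one set of genes to another between the group means. Pairs of libraries across groups differed by 27.8% to 30.8%, pairs of controls by 4.39% to 7.73% and pairs of caffeine libraries by 2.85% to 3.73%. On this scale of raw shares the loss was narrow and the gain broad, with 1225 genes losing and 4014 gaining. Only 8 genes carried 50% of the loss, while 196 genes carried 50% of the gain. The 10 genes that lost most gave up 16.1 percentage points together, and the 10 that gained most took up 3.43. Of the 10 most abundant genes of the mean control, 7 were also among the 10 of the mean caffeine library. Of the 100 most abundant genes, 66 to 68 were shared between a caffeine and a control library, against 90 to 97 between controls and 97 to 98 between caffeine libraries.

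By level, the balance of calls shifted steadily from higher to lower. Genes were classed by their mean over the 6 libraries, in which both groups weigh equally. A gene high in a single group can still enter a high class, such as KLLA0C19338g (means of 2150 CPM in controls and 19.9 CPM in caffeine). Of 341 genes under 10 CPM, 33.4% were called higher and 25.2% lower, with a median log2 change of 0.17. Of 2794 genes at 10 to 100 CPM, 35.4% were higher and 28.7% lower, with a median of 0.07. Of 1824 genes at 100 to 1000 CPM, 26.6% were higher and 35.3% lower, with a median of -0.08.

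The 165 genes over 1000 CPM stood out from these classes in size as well as balance. In this class 15.8% were called higher and 39.4% lower, against 31.5% and 31.2% of all tested genes. Their median log2 change was -0.44 and their lower quartile -1.49. At least 2-fold, 12 were higher and 54 lower, so that 40% of the class changed 2-fold, against 17.6% of all genes. They held 53.0%, 52.7% and 51.1% of gene counts in controls and 36.2%, 37.3% and 36.0% in caffeine, with no overlap. Classed by the 6 heat and MMS libraries, which are not in the comparison, the genes over 1000 CPM also had a median of -0.44. The numbers of genes called were not recomputed for that class. With raw totals the median of the class by the 6 caffeine and control libraries became 0.05, against 0.49 for all genes. None of these class balances was tested.

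**Figure D2:**
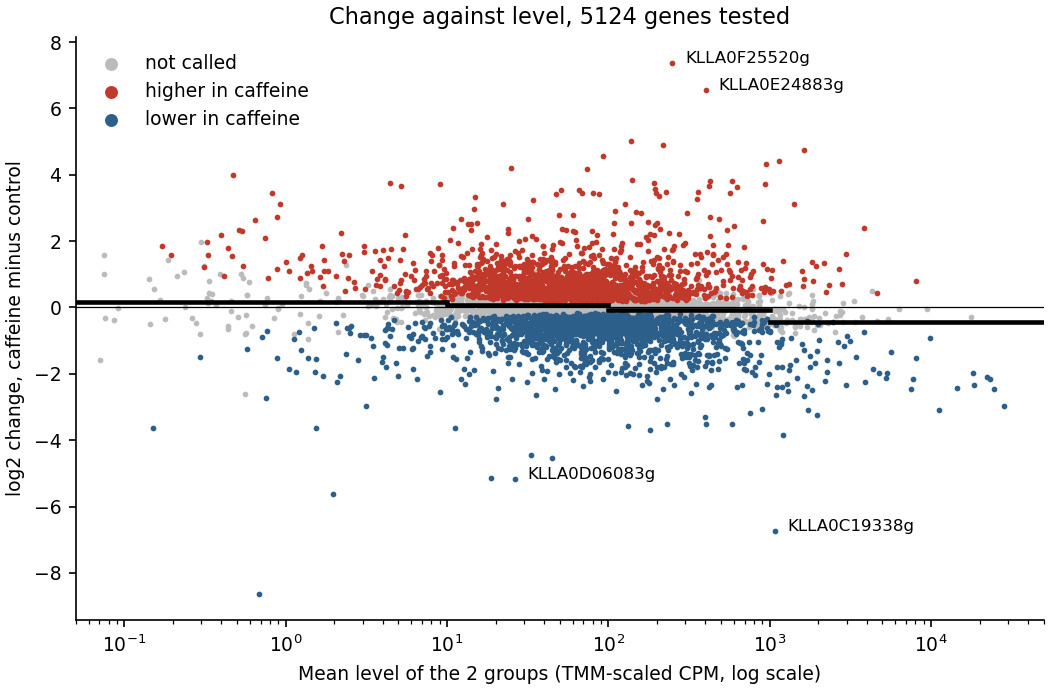
The log2 change (caffeine minus control) of each of the 5124 tested genes against its mean level in the 2 groups (CPM, log scale), with genes called higher in red, lower in blue and not called in grey. Black bars give the class medians of 0.17, 0.07, -0.08 and -0.44, and the 4 labelled IDs are the 2 largest changes in each direction that pass the rule for named genes.

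Gene length was related to the change less than level was. Of the 1195 tested genes with more than 2000 coding bases, 35.8% were higher and 26.2% lower, with a median log2 change of 0.07. In the classes under 500, 500 to 1000 and 1000 to 2000 bases the medians were -0.01, -0.03 and -0.01, and 28.0% to 34.1% of genes were called lower. The long genes also changed 2-fold less often, in 13.1% of cases, against 17.7% to 19.8% in the shorter classes.

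The excess of higher long genes lay at 10 to 100 CPM and was absent at 100 to 1000 CPM. Of 520 long genes at 10 to 100 CPM, 44.8% were higher and 21.2% lower, with a median of 0.20. Of 638 long genes at 100 to 1000 CPM, 29.9% were higher and 30.1% lower, with a median of -0.01. Genes of 1000 to 2000 bases and 10 to 100 CPM, by contrast, were higher in 33.8% of cases and lower in 29.0%. The deepest losses came from genes of 1000 to 2000 bases over 1000 CPM. Of these 80 genes 33 were at least 2-fold lower and 7 at least 2-fold higher.

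Summed over a library, both the shortest and the longest genes took a larger share in caffeine. Genes over 2000 bases held 18.9%, 19.5% and 20.1% of counts in controls and 24.6%, 25.1% and 24.5% in caffeine. Genes under 500 bases held 8.72%, 8.98% and 9.16% in controls and 10.8% to 11.1% in caffeine. The groups did not overlap in either measure, with an exact permutation p of 0.1 each. Without the 10 most abundant genes the difference between the group means was 1.8 percentage points for the long genes, against 5.25 with them, and 0.253 for the short genes, against 2 with them. The share of genes of 1000 to 2000 bases was 51.3% ± 0.634 in controls and 44.1% ± 0.259 in caffeine (SD, n = 3).

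**Figure D3:**
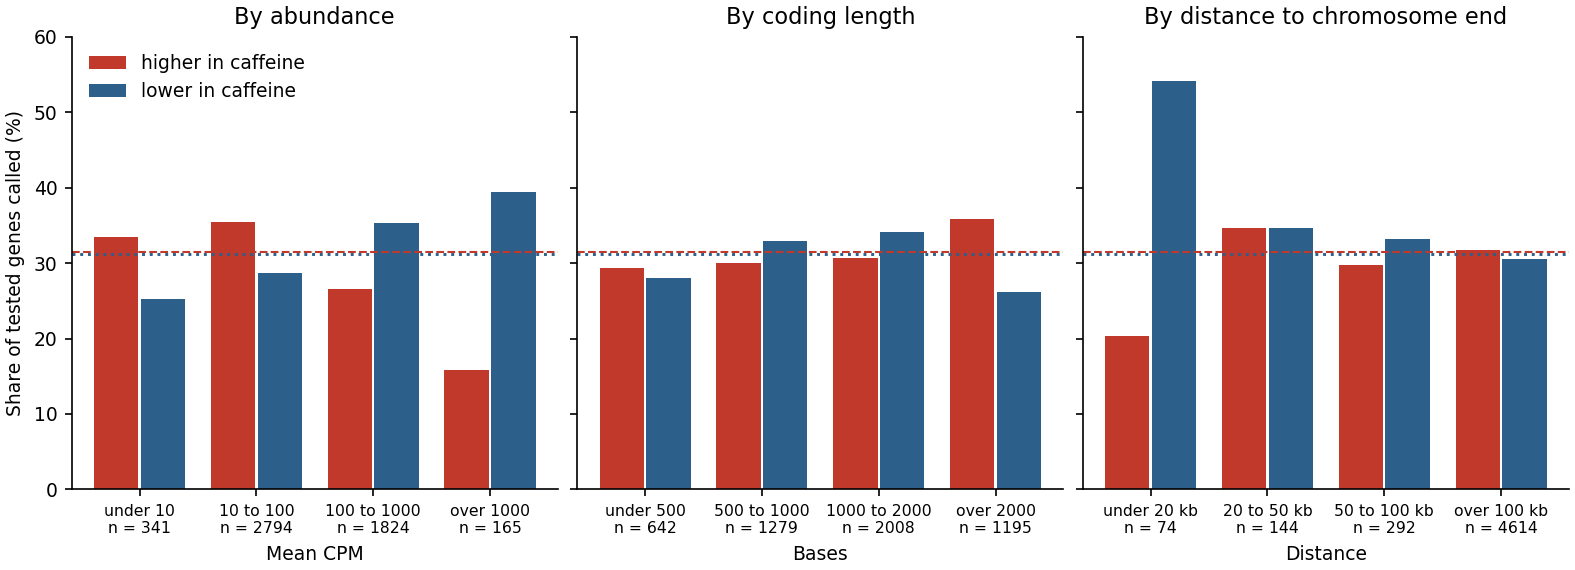
Share of tested genes (percent) called higher (red bars) or lower (blue bars) in caffeine, by mean level, coding length and distance to the chromosome end; dashed red and dotted blue lines mark the 31.5% and 31.2% of all tested genes. The widest gaps are over 1000 CPM, with 15.8% higher and 39.4% lower, and within 20 kb of an end, with 20.3% higher and 54.1% lower.

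The response was spread over all 6 chromosomes. The share of tested genes called higher ran from 29.1% on chromosome 4 to 33.4% on chromosome 3, and the share called lower from 29.5% on chromosome 6 to 32.5% on chromosome 4. Median log2 changes by chromosome lay between -0.03 and 0.04.

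The outermost 20 kb of the chromosomes held the largest share of genes called lower of any distance class. In baker's yeast, genes near chromosome ends are known to be silenced. Distance was measured from the outermost annotated feature. Of the 105 annotated genes within 20 kb of an end, 74 passed the count filter. Of these, 15 were called higher (20.3%) and 40 lower (54.1%), with a median log2 change of -0.45. The medians were 0.03 at 20 to 50 kb, 0.03 at 50 to 100 kb and 0.01 beyond 100 kb. Within 10 kb of an end the median was -0.63, and within 40 kb it was -0.10.

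The end genes were lower at most of the 12 ends. Calls of lower outnumbered calls of higher at 11 ends, and the left end of chromosome 6, with 3 higher and 0 lower among 7 tested genes, was the exception. The median change was below 0 at 10 ends. It was lowest at the left end of chromosome 4, at -2.11 over 2 genes, and at the right end of chromosome 2, at -1.27 over 7 genes. Single ends hold 2 to 11 tested genes, too few to rank them.

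Calls of lower outnumbered calls of higher among end genes of every level. Of the 18 end genes under 10 CPM, 13 were lower and 2 higher, with a median of -0.89, while the class of all genes under 10 CPM had a median of 0.17. Of the 40 end genes at 10 to 100 CPM, 18 were lower and 11 higher, with a median of -0.05. Of the 12 at 100 to 1000 CPM, 6 were lower and 2 higher, with a median of -0.43, and of the 4 over 1000 CPM, 3 were lower and 0 higher, with a median of -2.02. Without genes under 10 CPM the median of the end genes was -0.25. Together the genes within 20 kb of an end held 1.26%, 1.16% and 1.07% of counts in controls and 0.851%, 0.788% and 0.781% in caffeine, with no overlap between the groups. With raw totals their median became 0.04, again against 0.49 for all genes.

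Neighbouring genes changed together to an extent that depended on their orientation. Genes transcribed away from each other share the stretch of DNA that holds both promoters. In 1353 such divergent pairs that do not overlap, the log2 changes of the partners had a Pearson correlation of 0.313 and a Spearman correlation of 0.266 across pairs. In 2139 pairs on the same strand the values were 0.0995 and 0.0976, and in 1343 convergent pairs, which face each other with their ends, 0.0564 and -0.00793. All pairs share the same libraries, so these values describe the pairs and carry no test.

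The similarity did not reach far along the chromosome. Over all orientations the Pearson correlation was 0.155 for adjacent genes, 0.0434 for genes 2 places apart and 0.0117 for genes 5 places apart. Divergent pairs less than 500 bases apart had a Pearson correlation of 0.334 and those at least 1000 bases apart 0.361. The Spearman correlations ran the other way, at 0.332 and 0.25. Both partners differed at least 2-fold in 26 of the closer and 22 of the wider pairs, with the same direction in 23 and 16. Where both partners of a divergent pair differed at least 2-fold, the direction was the same in 53 of 66 pairs (80.3%). It was the same in 64 of 88 pairs on the same strand (72.7%) and in 19 of 31 convergent pairs (61.3%).

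Differences between replicates of a group carried part of this pattern. For control 1 minus the mean of controls 2 and 3, divergent pairs had a correlation of 0.21, pairs on the same strand 0.0723 and convergent pairs -0.014. For caffeine 1 minus the mean of caffeine 2 and 3 the values were 0.117, 0.0728 and 0.000926. The part of this replicate pattern in the values between groups was not tested. In the 60 overlapping pairs the correlation was 0.653. Reads in an overlap can be ambiguous, and the sources used here do not give the strand setting of the counting.

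**Figure D4:**
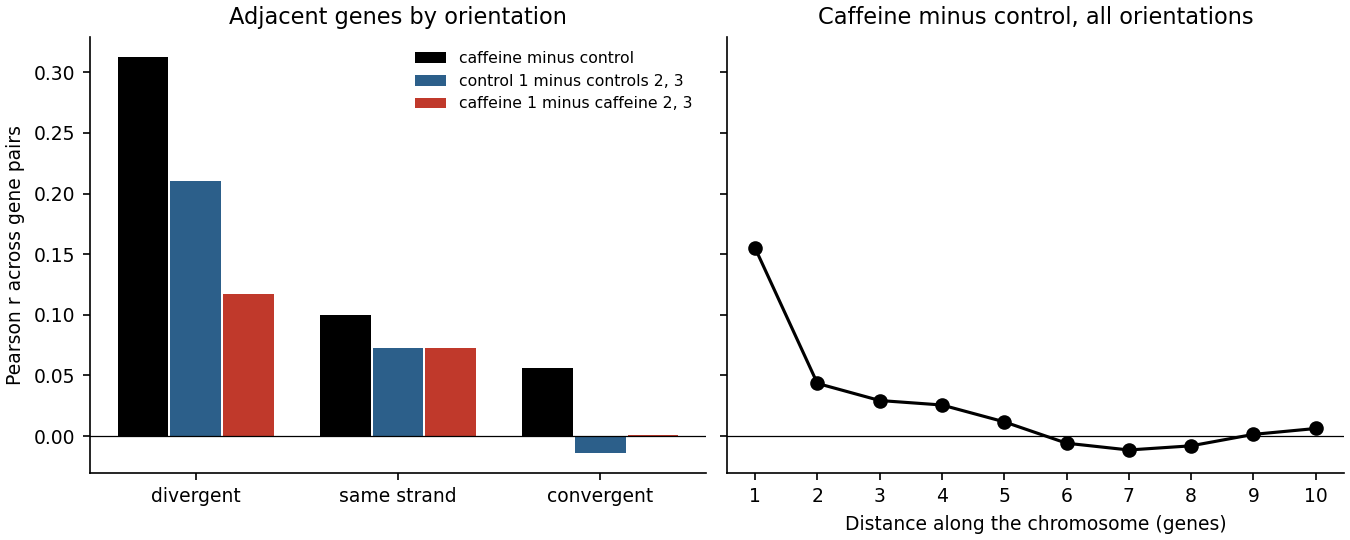
Left, the Pearson correlation across pairs of adjacent, non-overlapping genes by orientation, for the log2 change in caffeine (black) and for differences between replicates of the controls (blue) and of caffeine (red). Right, the correlation of the change in caffeine for genes 1 to 10 places apart; it is 0.155 for adjacent genes and between -0.0115 and 0.0434 from 2 places on.

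The largest rises were in KLLA0F25520g (chromosome 6, 2370884 to 2372155, minus strand) and KLLA0E24883g (chromosome 5, 2205689 to 2207464, plus strand), each a single coding part. The sources used here do not give the genome build of these coordinates. KLLA0F25520g was at 2.76, 4.07 and 1.96 CPM in controls and 558, 447 and 483 CPM in caffeine, a log2 change of 7.36 ± 0.32 (SE; edgeR adjusted p = 5.62e-10). It was at 10.4 to 14.9 CPM in heat and 6.3 to 13.7 CPM in MMS, and caffeine stood 41.5-fold above heat and 44.6-fold above MMS (edgeR adjusted p = 3.46e-09 and 4.89e-09). Its high level was thus found in the 3 caffeine libraries and in none of the 9 control, heat and MMS libraries.

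KLLA0E24883g was at 9.53, 7.92 and 7.98 CPM in controls and 782, 787 and 826 CPM in caffeine, 93.9-fold higher. It lies 23599 bases from the outermost feature, just outside the stretch in which most genes were lower. Heat libraries held 286 to 385 CPM and MMS libraries 52.6 to 80.5 CPM, and caffeine was 2.44-fold above heat (edgeR adjusted p = 7.75e-05) and 12.5-fold above MMS (2.2e-08). The caffeine, heat and MMS groups all lay above the controls, with caffeine highest.

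The deepest falls were in KLLA0C19338g (chromosome 3, 1729569 to 1730978, plus strand) and KLLA0D06083g (chromosome 4, 521215 to 521565, minus strand). KLLA0C19338g was at 2820, 2160 and 1460 CPM in controls and 18.9 to 20.8 CPM in caffeine, a log2 change of -6.75 ± 0.34 (SE; edgeR adjusted p = 1.71e-09). It lies 20571 bases from the outermost feature. Its caffeine level passed no test against heat or MMS, with log2 differences of -0.20 ± 0.27 and 0.15 ± 0.27 (SE; edgeR adjusted p = 0.526 and 0.634). None of the 9 caffeine, heat and MMS libraries was above 23.7 CPM, so that the controls stood alone.

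KLLA0D06083g was at 58.4, 50.0 and 46.3 CPM in controls and 1.38, 1.72 and 1.31 CPM in caffeine, which rest on 28, 39 and 71 counts. This 35.6-fold fall went past heat by 2.51-fold (edgeR adjusted p = 0.000352) and past MMS by 2.22-fold (0.00145). The caffeine libraries were the lowest of the 12.

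**Figure D5:**
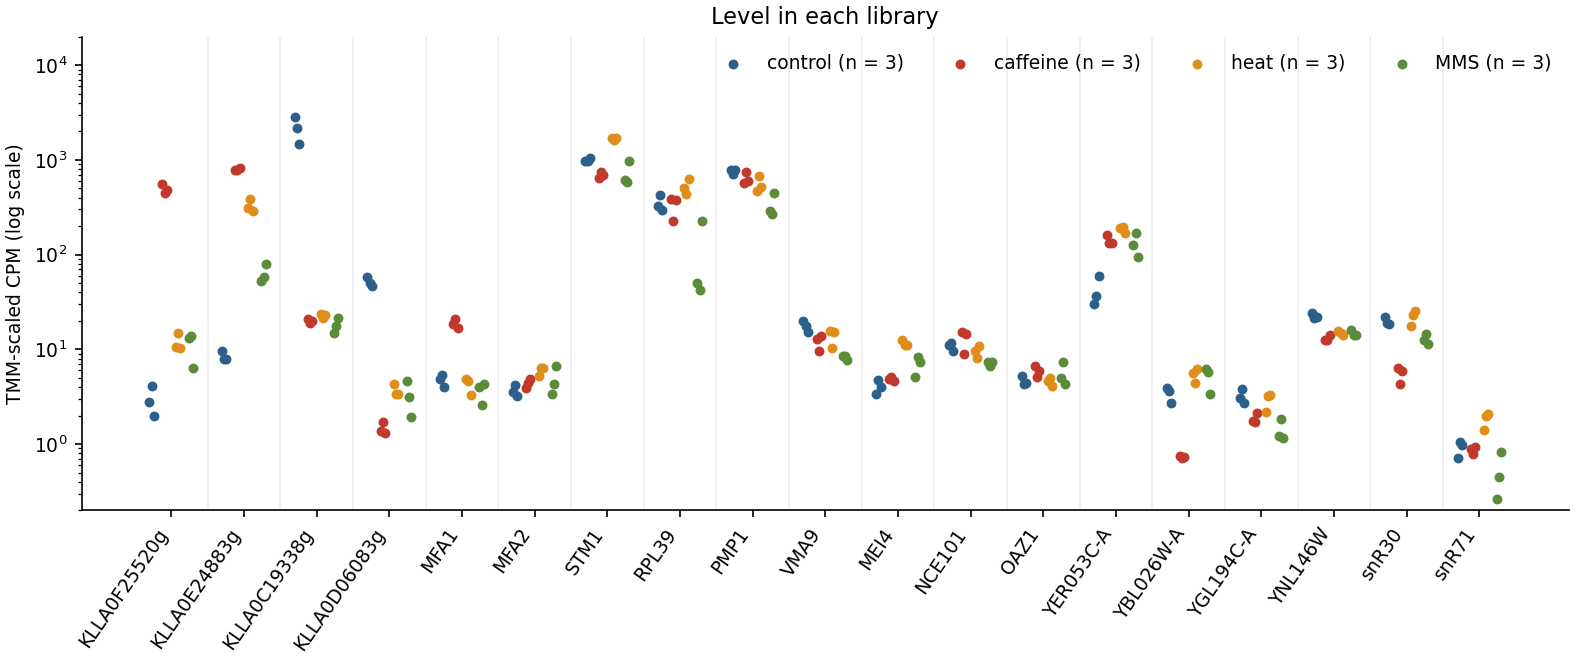
Level (TMM-scaled CPM, log scale) in each library of control, caffeine, heat and MMS for the 4 IDs with the largest changes and the 15 IDs that carry a gene name, with 3 points per group. Among these groups, KLLA0F25520g and MFA1 are high in caffeine alone and YBL026W-A and snR30 are lowest there. YER053C-A lies above the controls in caffeine, heat and MMS.

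Of the 15 IDs that carry a gene name, 2 were higher in caffeine, 5 lower and 8 not called, where 31.5% of all tested genes were higher and 31.2% lower. With raw totals VMA9, YGL194C-A and YNL146W lost their calls and MFA2, MEI4, NCE101 and OAZ1 were called higher. The roles below are those of the baker's yeast genes of these names. MFA1 and MFA2 encode precursors of the a-factor mating pheromone. MFA1 was at 4.87, 5.38 and 4.01 CPM in controls and 18.4, 20.7 and 16.6 CPM in caffeine, a rise of 1.95 ± 0.22 on the log2 scale (SE; edgeR adjusted p = 3.17e-06). It was at 2.58 to 4.81 CPM in heat and MMS, and caffeine lay 4.45-fold above heat and 5.17-fold above MMS (edgeR adjusted p = 1.07e-06 and 7.85e-07). MFA2 was at 3.24 to 4.24 CPM in controls and 3.89 to 4.83 CPM in caffeine, with overlapping groups and no call (log2 change 0.26 ± 0.21 SE). Per kilobase of coding length the controls held 46.6 CPM of MFA1 and 37.0 of MFA2, and the caffeine cultures 182 and 44.2. The difference between the changes of these genes was not tested.

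The small nucleolar RNA snR30, needed for processing of ribosomal RNA, was lower in caffeine than in controls, heat or MMS. Its poly(A)-captured counts gave 22.0, 19.1 and 18.6 CPM in controls and 6.31, 4.28 and 5.94 CPM in caffeine. Caffeine lay 3.98-fold below heat and 2.33-fold below MMS (edgeR adjusted p = 3.87e-07 and 5.73e-05). Total snR30 was not measured, since capture takes only polyadenylated molecules. snR71, which guides a modification of ribosomal RNA, was near 1 CPM in both groups and not called.

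RPL39 and STM1, the other IDs whose names point to the ribosome, were not called. RPL39, a protein of the large subunit, was at 330, 428 and 293 CPM in controls and 390, 226 and 377 CPM in caffeine. The groups overlap and the log2 change was -0.08 ± 0.59 (SE), an error that would hide a change of 2-fold. STM1, which binds ribosomes, was at 971, 964 and 1060 CPM in controls and 651, 745 and 693 CPM in caffeine. In TMM-scaled CPM all caffeine libraries lay below all controls. The edgeR adjusted p was 0.0666 in the fit of 15 libraries and 0.000551 in the fit of 6. With raw totals the log2 change was -0.03, against -0.52 with TMM, and was not called (edgeR adjusted p = 0.884). STM1 was 2.42-fold lower in caffeine than in heat (edgeR adjusted p = 0.000241).

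Among the IDs named for proton pumps, VMA9 was called lower and PMP1 was not called. VMA9, a subunit of the vacuolar proton pump whose ID overlaps another gene, averaged 17.6 ± 2.42 CPM in controls and 12.1 ± 2.24 CPM in caffeine (SD, n = 3). It was called lower (edgeR adjusted p = 0.00969), but not without caffeine replicate 2 (edgeR adjusted p = 0.0536). PMP1, which encodes a small membrane protein that regulates the proton pump of the cell surface, was at 712 to 785 CPM in controls and 569 to 748 CPM in caffeine and was not called. PMP1 stood 1.89-fold higher in caffeine than in MMS (edgeR adjusted p = 0.00318).

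The IDs with systematic baker's yeast names changed in both directions. YER053C-A was at 30.1, 36.8 and 59.0 CPM in controls and 161, 133 and 133 CPM in caffeine, a 3.41-fold rise. It differed neither from heat nor from MMS past the threshold (edgeR adjusted p = 0.182 and 0.649). YBL026W-A fell 4.8-fold, from 3.95, 3.63 and 2.73 CPM to 0.74, 0.706 and 0.722 CPM, the latter from 15, 16 and 39 counts. Its caffeine level was 7.55-fold below heat and 7.05-fold below MMS. YNL146W fell 1.71-fold from 22.6 ± 1.44 CPM (SD, n = 3), and YGL194C-A fell 1.69-fold from 3.18 ± 0.55 CPM, a call lost without caffeine replicate 2 or control replicate 2 (edgeR adjusted p = 0.0505 and 0.0736).

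The other named IDs did not change past the threshold. MEI4, needed for DNA breaks in meiosis, was at 3.41 to 4.69 CPM in controls and 4.67 to 5.07 CPM in caffeine, and it was 2.39-fold lower in caffeine than in heat (edgeR adjusted p = 1.45e-05). OAZ1, an inhibitor of the polyamine enzyme ornithine decarboxylase, overlaps another gene and was at 4.32 to 5.2 CPM in controls and 5.16 to 6.61 CPM in caffeine. It was called higher in the fit of 6 libraries (edgeR adjusted p = 0.0482). NCE101, linked to protein export, was at 9.62 to 11.6 CPM in controls and 8.95 to 15.1 CPM in caffeine. Its call changed without caffeine replicate 2, when the log2 change of 0.25 became 0.47 (edgeR adjusted p = 0.0191).

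Caffeine was set directly against heat and MMS, so that the shared controls cancel. Against heat, 73.1% of tested genes differed, 1933 (37.7%) higher in caffeine and 1814 (35.4%) lower. At least 2-fold, 751 (14.7%) were higher and 674 (13.2%) lower, and with raw totals 957 and 495. Against MMS, 65.4% differed, 1649 (32.2%) higher and 1701 (33.2%) lower. At least 2-fold, 604 (11.8%) were higher and 351 (6.85%) lower. With raw totals the balance against MMS turned, to 938 higher and 2633 lower, with 372 and 815 at least 2-fold. The root mean square log2 difference over the 4783 genes of at least 10 CPM was 1.01 from heat, 0.82 from MMS and 0.86 from controls. The median size of the log2 difference was 0.59, 0.46 and 0.43, so the order of MMS and controls depended on the measure. MMS replicate 3 stands apart from the other MMS libraries, and without it 1797 genes were higher and 1666 lower than in MMS.

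Genes over 1000 CPM in the mean of the caffeine and control libraries were more often higher than lower in caffeine against MMS. Of the 165 genes over 1000 CPM, 89 were higher in caffeine than in MMS and 13 lower, with a median log2 difference of 0.72, and without MMS replicate 3 these were 124, 14 and 1.13. Against heat, 48 were higher and 55 lower, with a median of -0.24. Caffeine entered the choice of this class and heat and MMS did not, which favours higher values in caffeine. For these contrasts the class was computed neither from other libraries nor with raw totals. Genes under 500 bases were also higher in caffeine than in MMS in 270 of 642 cases and lower in 123, with a median of 0.29 (0.38 without MMS replicate 3). Genes over 2000 bases were higher in caffeine than in heat in 547 of 1195 cases (45.8%) and lower in 342 (28.6%).

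The end genes, lower in caffeine than in controls, stood above their level in heat. Of these 74 genes, 38 were higher in caffeine than in heat and 16 lower (51.4% and 21.6%), with a median log2 difference of 0.41. Of all tested genes, 37.7% were higher and 35.4% lower. Genes at 20 to 50 kb leaned the same way against heat, with 44.4% higher, 26.4% lower and a median of 0.22. Against MMS, 29 of the 74 end genes were higher and 24 lower, with a median of 0.20 (0.09 without MMS replicate 3). These class balances were not tested.

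Many of the genes with large changes were also called against both heat and MMS. Of the 442 genes at least 2-fold higher than in controls, 249 (56.3%) were called higher than in both heat and MMS. Counting these 249 as well, 343 were called higher than in heat and 285 higher than in MMS. Of all tested genes, 37.7% were higher than in heat and 32.2% higher than in MMS. Of the 461 at least 2-fold lower, 176 (38.2%) were called lower than in both. Counting these 176 as well, 290 were called lower than in heat and 228 lower than in MMS. Of all tested genes, 35.4% and 33.2% were lower. The share of all tested genes called against both was not computed. The caffeine libraries entered the choice of these genes and the comparisons, so the shares are descriptions. Conversely, 28 of the higher genes were called higher still in heat and 43 in MMS, and 53 of the lower genes were called lower still in heat and 92 in MMS.

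Reads on no annotated feature were more frequent in caffeine. They made up 8.04%, 6.94% and 7.86% of reads in caffeine and 5.52%, 5.5% and 5.46% in controls, with no overlap (exact permutation p = 0.1). Heat libraries held 6.04% to 6.95% and MMS libraries 4.68% to 5.23%. The tRNA genes, whose transcripts end without a poly(A) tail in their mature form, were called higher in 17 of 44 tested cases (38.6%) and lower in 3 (6.82%), against 31.5% and 31.2% of all tested genes. Together the 162 tRNA genes held 0.0056% of gene counts in caffeine and 0.00239% in controls, so single tRNA values rest on few counts. The part of unassigned reads in any result was not tested.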

How the data were processed

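Per the submitters' processing notes, reads were handled with TopHat and HTSeq; versions, genome build and strand setting are not given in the sources used here. The deposited values are raw counts per coding part, which were summed to 5320 genes; HTSeq's special lines (unassigned or ambiguous reads) were dropped before scaling and testing. The 3 ethanol files were counted with featureCounts 1.6.3, per the file headers. Their annotation columns gave coordinates and lengths. The ethanol counts enter the fits through the count filter, the TMM scaling and the shared spread. Poly(A) capture and fragmentation are per the labels' protocols.

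Genes were tested with edgeR 4.0.16 (R 4.3.3) on all 15 K. lactis libraries, modelling the group alone, with filterByExpr and TMM scaling. Tests were 2-sided, with Benjamini-Hochberg adjustment over 5124 genes and calls under 0.05. Standard errors derive from the quasi-likelihood F statistic. Class limits were 10, 100 and 1000 CPM, 500, 1000 and 2000 bases, and 20, 50 and 100 kb. Library values were compared by exact permutation. Distances between libraries used log2(CPM + 1). Intervals are not given for single counts; depth is given per library.

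Named genes passed an adjusted p under 0.05, a 2-fold change, 10 CPM in the higher group and separation of all libraries, with no overlap and no noncoding ID (381 higher, 419 lower); without names, the 2 largest per direction are printed. IDs that carry a name are all printed. The members, lists and classes were chosen with earlier results of these data known. Lists by baker's yeast name could not be used, since the IDs are not paired with names.

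In simulated counts for this comparison over 5101 genes, with 200 changed, edgeR recovered 56.5% of 1.5-fold, 98.6% of 2-fold and 100% of 4-fold changes, with 6.15% false calls. The other groups were simulated with equal means. In the data 62.7% of tested genes were called, so these rates need not carry over. Alternatives were RLE scaling, raw totals, DESeq2 1.42.0, no filter, fewer libraries, a replicate block and other class limits.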

Additional observations from a re-analysis of the deposited data

Results flagged for a closer look

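Ambiguous reads, which no comparison above uses, made up 2.40% to 2.45% of reads in the caffeine libraries (mean 2.43%) and 1.90% to 2.23% in controls (mean 2.1%). All 3 caffeine libraries lay above all 3 controls (2-sided exact permutation p = 0.1, the smallest possible). Heat libraries held 3.24% to 3.67% and MMS libraries 1.69% to 3.02%. Groups of 3 are too small for the test of single outlying libraries.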

How the results depend on the processing

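The count of calls in caffeine against controls stayed within 1.5 times of its value under RLE scaling, DESeq2, no filter, the smaller fits, genes without overlap and each left-out library. With one library left out it ran from 1438 to 1540 higher and 1429 to 1494 lower, and at 2-fold from 419 to 467 and 452 to 468. Raw library totals gave 3023 and 623, and at 2-fold 1140 and 216. Against MMS they gave 938 and 2633, and 372 and 815 at 2-fold.

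The replicate number as a block gave 1651 higher and 1605 lower calls in the fit of 15 libraries and 1848 and 1788 in the fit of 6. Deviations of same-numbered caffeine and control libraries correlated at 0.231, -0.106 and 0.00637, and not every library correlated best with its own number, so the numbers were not taken to pair the cultures.

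Class medians moved with raw totals by about the shift of all genes, to 0.66, 0.56, 0.41 and 0.05 by level, 0.48, 0.46, 0.47 and 0.56 by length, and 0.04, 0.52, 0.52 and 0.50 by distance from an end, each in the order of the classes above. Under RLE scaling the medians became 0.09 at 10 to 100 CPM, 0.00 at 1000 to 2000 bases, -0.44 within 20 kb, 0.05 at 20 to 50 kb and 0.03 beyond 100 kb. Classes set by the control mean, which favours falls of high genes, had medians of 0.45, 0.12, -0.18 and -0.59, and classes by CPM per kilobase 0.28, 0.05, -0.11 and -0.40. With one library left out, medians ran from 0.13 to 0.26, 0.06 to 0.09, -0.09 to -0.07 and -0.50 to -0.41 by level, from -0.04 to 0.00 at 500 to 1000 bases, and from -0.54 to -0.47, 0.01 to 0.03, 0.00 to 0.03 and 0.00 to 0.03 by distance. Limits of 10 and 40 kb gave -0.63 and -0.10, and genes of at least 10 CPM gave -0.25 within 20 kb and 0.00 beyond 100 kb.

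Neighbour correlations in genes of at least 10 CPM were 0.078 on the same strand and 0.067 in convergent pairs. With one library left out they ran from 0.307 to 0.318 in divergent pairs, 0.0959 to 0.104 on the same strand and 0.0533 to 0.0618 in convergent pairs. Library measures kept their direction without any one library, and without overlapping genes. Without the 10 most abundant genes they kept it at a smaller size, at -2.73 and -6.21 points for the share of the 10 and 100 most abundant genes (-13.5 and -15.4 with them), 109 for the number of genes that hold 50% of counts (191), and 0.253 and 1.8 points for short and long genes (2 and 5.25). RPL39 changed sign with raw totals (0.41) and ran from -0.22 to 0.15 with a library left out, snR71 likewise (0.44, and -0.22 to 0.10), and PMP1 with raw totals (0.24); the cause was not tested. STM1 was called in 6 of its alternatives (adjusted p = 0.000551 to 0.0488). It was called neither with raw totals nor with any single caffeine or control library left out (edgeR adjusted p = 0.884, and 0.103 to 0.161). With 3 libraries a group, no exact test of a library measure can pass 0.05. Raw totals, the fits without MMS libraries, genes without overlap and the block in 6 libraries were chosen after seeing the data.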
